A study of Mus musculus with 22 samples.

Results

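The comparison asked how P14 CD8+ T cells that lack VHL differed in their transcripts from wild-type (WT) cells taken from tumor on day 7, before any division of those cells into resident and non-resident sorts. Its members were the 4 libraries whose labels read day 7, tumor and VHL or Wt with no subset name, out of 22 libraries in the series: 2 VHL-deficient and 2 WT. All cells were of the C57BL/6 strain, from mice of 6 to 12 weeks, and carried the P14 T cell receptor, a transgenic receptor for a peptide of lymphocytic choriomeningitis virus. The series text gives 5 mice for each biological replicate, so each library stands for pooled animals. The p-values below set each difference against the spread between replicate libraries, estimated over all 22 libraries and not from the 4 compared alone. How VHL was removed, the tumor that the cells infiltrated and the event that day 0 marks were not stated in the sources at hand. The genotype difference was set beside that in day 7 spleen (2 libraries of each genotype), in day 11 tumor (3 of each) and in the Trm (tissue-resident memory) and nonTrm sorts of day 7 tumor (2 of each per sort), all of the same strain, receptor and age.

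VHL is the substrate-binding part of a ubiquitin ligase. When oxygen is present, prolyl hydroxylases of the EGLN family modify the alpha subunits of hypoxia-inducible factor (HIF), VHL binds the modified form, and the subunit is degraded. Without VHL the subunits persist whatever the oxygen supply, pair with ARNT and bind short DNA elements that hold ACGTG or GCGTG, and the genes next to these elements include glucose transporters, glycolytic enzymes, EGLN3 itself and mitophagy receptors. In CD8+ T cells the pathway is known for its ties to glucose use, effector molecules and residence in tissue.

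The RefSeq promoters below are those of 4 known HIF targets whose transcripts rose here, and they are shown because the core element can be seen in them. Each run holds the 250 bases before the most upstream RefSeq start on GRCm38.p6 (mm10), written 5′ to 3′ on the strand of the gene, and capitals mark each match to ACGTG or GCGTG on either strand (CACGT and CACGC are the reverse complements, and ACGTG and CACGT overlap in CACGTG).
P4ha2, chr11:54100674-54100923, plus strand, 3 matches: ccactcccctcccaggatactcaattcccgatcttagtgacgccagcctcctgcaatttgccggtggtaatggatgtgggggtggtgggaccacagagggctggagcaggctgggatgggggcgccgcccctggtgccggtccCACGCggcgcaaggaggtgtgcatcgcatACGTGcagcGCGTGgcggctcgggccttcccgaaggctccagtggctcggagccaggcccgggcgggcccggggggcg
Stc2, chr11:31370062-31370311, minus strand, 2 matches: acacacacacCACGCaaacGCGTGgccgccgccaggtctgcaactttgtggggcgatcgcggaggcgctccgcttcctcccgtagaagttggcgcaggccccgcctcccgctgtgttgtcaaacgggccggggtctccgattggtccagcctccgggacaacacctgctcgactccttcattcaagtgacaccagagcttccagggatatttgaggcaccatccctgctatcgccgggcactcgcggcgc
Bnip3, chr7:138909507-138909756, minus strand, 5 matches: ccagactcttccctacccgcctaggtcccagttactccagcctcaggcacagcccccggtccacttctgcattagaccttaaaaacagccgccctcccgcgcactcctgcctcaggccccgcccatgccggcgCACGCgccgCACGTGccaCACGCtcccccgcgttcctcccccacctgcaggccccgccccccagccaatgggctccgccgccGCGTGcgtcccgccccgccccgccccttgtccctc
Egln3, chr12:54203875-54204124, minus strand, 1 match: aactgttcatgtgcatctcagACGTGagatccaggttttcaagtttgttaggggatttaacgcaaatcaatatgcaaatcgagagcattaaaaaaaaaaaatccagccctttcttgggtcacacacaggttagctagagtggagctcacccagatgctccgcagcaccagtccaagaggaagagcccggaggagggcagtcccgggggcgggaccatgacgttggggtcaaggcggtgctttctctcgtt
In the GENCODE M21 annotation the P4ha2 window lies wholly in an intron of a longer P4ha2 transcript, 13 bases of the Stc2 window and 13 of the Bnip3 window fall in the first exon, and the Egln3 window lies before the gene. Of all 32851 RefSeq windows of this length, 38.6% held at least 1 match. Of the 14327 tested genes 9321 had a window, and 61.1% of these genes held a match in at least 1 of their windows. The first share counts windows and the second counts genes, so they cannot be set against each other. A match is a description of the letters and not evidence of binding. The 4 genes were the called members of the HIF target lists with the largest log2 fold change among those whose window held a match.

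The 4 libraries held 3644936 to 8744385 reads assigned to genes, of which 30.3% to 32.2% fell on the ribosomal RNA gene CT010467.1 in either genotype. Levels are the authors' size-factor scaled counts, and 1 read was worth 0.788 to 2.35 of them. Mitochondrial transcripts took 4.14% and 3.93% of reads in the VHL-deficient libraries and 7.56% and 9.46% in the WT libraries. The WT replicates differed more from each other (median absolute difference of 0.55 on the log2 scale) than the VHL-deficient replicates (0.30). Among the other libraries, replicate 2 of the VHL-deficient nonTrm cells had the highest ribosomal share, 45.7% and its group the widest replicate difference, 0.92; it bears on the comparison through the shared estimate of the spread. The T cell markers Cd3e, Cd8a and Lck were present in all 4 libraries, with Cd8a at 9308 and 9686 scaled counts in VHL-deficient and 5451 and 7994 in WT cells, and no member of that list of 15 was called.

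Vhl itself (mm10, chr6:113623959-113631633) had 1.35 and 5.51 scaled counts in the VHL-deficient libraries, from 1 and 7 reads, against 177 and 141 in the WT libraries, from 162 and 60 reads. The groups were far apart and matched their labels. The log2 fold change (log2FC, VHL-deficient over WT on the scale of log2(scaled count + 1)) was -5.34 ± 0.80 (SE), adjusted p = 5.22e-04 by limma.

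Across the 14327 genes tested, 241 (1.68%) were called higher and 32 (0.223%) lower in VHL-deficient cells at an adjusted p under 0.05, with a median log2FC of 2.59 among the higher and -1.76 among the lower, against 0.03 over all tested genes. The log2FC was positive in 51.7% of tested genes, the share beside which the counts by sign below are to be read. In every called gene the groups did not overlap, which by itself was common: both VHL-deficient libraries stood above both WT libraries in 25.5% of tested genes and below them in 23.6%. With 2 libraries a group the count rested on each of them, and fell to 94 without VHL-deficient replicate 1, to 117 without replicate 2 and to 131 without WT replicate 2, and rose to 331 without WT replicate 1. A fit of these 4 libraries alone called 116. Leaving out either VHL-deficient nonTrm library, which entered the estimate of the spread alone, gave 422 (replicate 1) and 424 (replicate 2). A set of 77 genes, 73 higher and 4 lower, was called in all 4 fits that each leave out 1 of the 4 libraries, and in what follows such a gene is said to keep its call.

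**Figure D1:**
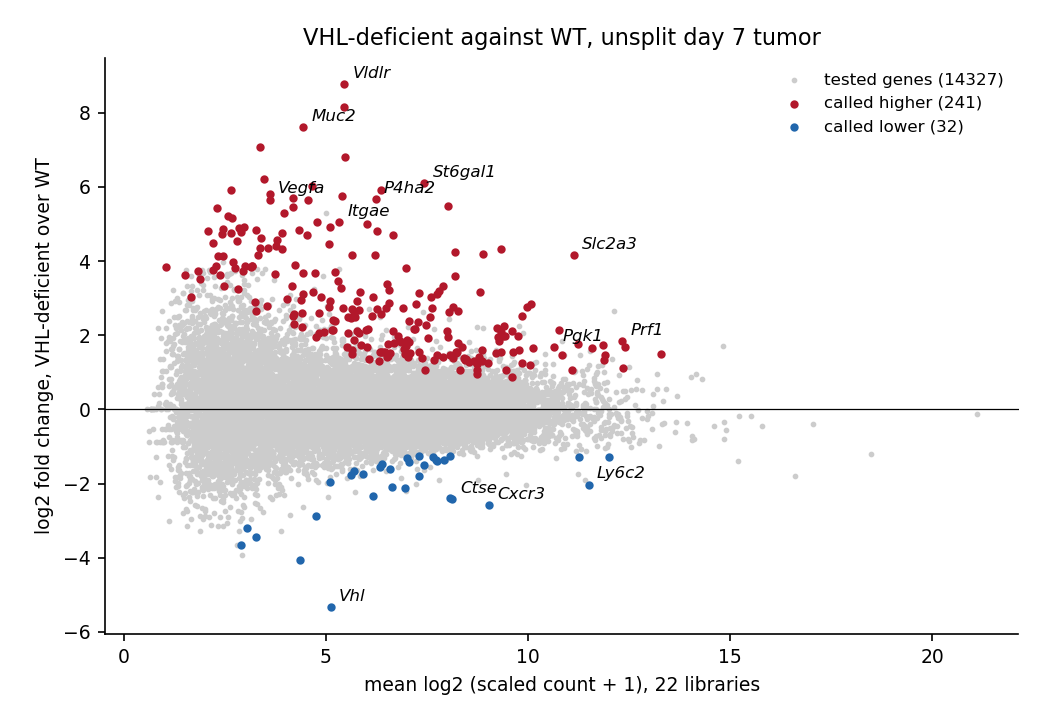
Each point is a tested gene, with its mean level over 22 libraries on the x axis (log2 of scaled count + 1) and its log2FC, VHL-deficient over WT in unsplit day 7 tumor, on the y axis. The 241 genes called higher (red) outnumber the 32 called lower (blue), and Vhl, at -5.34, is the lowest point.

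Of 20 tested HIF targets in glucose uptake and glycolysis, 13 were called higher. This list, like the others, was chosen with earlier results of these data known, and it does not hold every glycolytic gene. The muscle-type enolase Eno3, called lower (log2FC -2.33), is not on it. All 20 tested genes of the 21 on the list of HIF targets in glycolysis and glucose uptake stood higher in both VHL-deficient libraries than in either WT library, none was called lower, and their median log2FC was 1.68. The count was 7 without either VHL-deficient replicate, 9 without WT replicate 1 and 8 without WT replicate 2. The glucose transporter Slc2a1 (GLUT1) stood at 1499 and 1297 scaled counts against 316 and 287. The groups were well apart, with log2FC 2.21 ± 0.28 and adjusted p = 8.06e-05, and the gene kept its call. Slc2a3 (GLUT3), another high-affinity transporter, stood at 14270 and 14982 against 1735 and 388. Its groups did not overlap either, but the WT replicates were spread, and its call (log2FC 4.15 ± 0.72, adjusted p = 0.00215) was lost without WT replicate 2.

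Within the pathway itself, hexokinase 2 (Hk2), which traps glucose as glucose 6-phosphate, stood at 1159 and 910 against 205 and 61.1 (log2FC 3.18, adjusted p = 7.49e-04). The liver-type phosphofructokinase Pfkl stood at 4695 and 4846 against 1090 and 1082 (log2FC 2.13, adjusted p = 0.00171). Aldolase C (Aldoc) stood at 1620 and 1667 against 161 and 205 (log2FC 3.17, adjusted p = 5.05e-04). These enzymes act at entry, commitment and cleavage of the hexose, none had overlapping groups, and all kept their calls. Phosphoglycerate kinase 1 (Pgk1), which makes the first ATP of the pathway, stood at 4379 and 4346 against 1144 and 1632 (log2FC 1.67, adjusted p = 5.22e-04) and kept its call as well. Tpi1, Pkm, Gapdh, Gpi1, Pfkfb3 and the pyruvate dehydrogenase kinase Pdk1 were called with log2FC from 1.12 to 1.95 and lost the call in at least 2 of the 4 fits without 1 library. The other 7 tested members did not pass the test although their groups did not overlap.

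Among genes that handle lactate, the carrier Slc16a3 (MCT4) stood at 5511 and 4454 against 736 and 722, a difference well outside the spread of either genotype, with log2FC 2.76 ± 0.30 and adjusted p = 1.04e-05. Bsg, its chaperone basigin, chosen after its values were seen, stood at 6142 and 5816 against 1576 and 1954 (log2FC 1.77, adjusted p = 0.0017). Both kept their calls. Lactate dehydrogenase A (Ldha) stood at 35732 and 34044 against 15489 and 22962. Its groups did not overlap, but the difference (log2FC 0.89 ± 0.36, adjusted p = 0.269) did not pass the test. Several glycolytic genes have processed pseudogenes in the mouse genome, and granzymes and Ly6c2 below have close paralogs; the assignment of reads shared with such copies is not given in the sources used here.

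**Figure D2:**
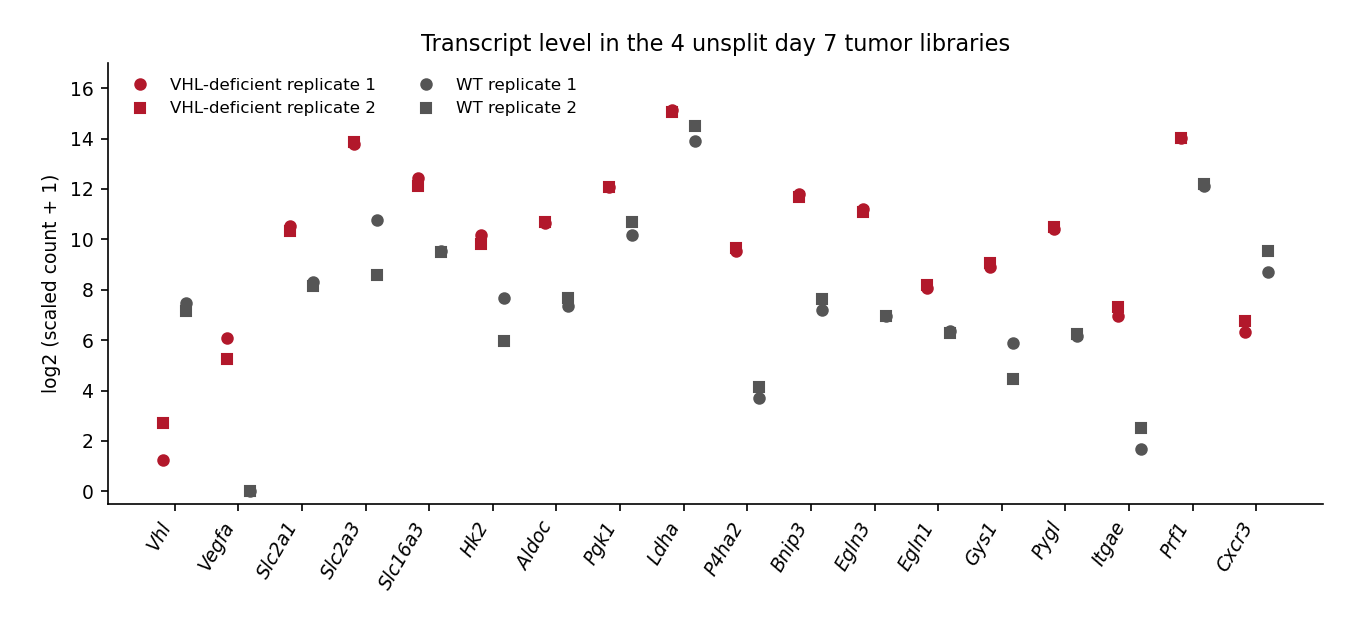
Level of 18 genes in the 4 libraries, as log2(scaled count + 1), with VHL-deficient libraries in red and WT libraries in grey, replicate 1 as circles and replicate 2 as squares. The groups are apart in every gene shown, by most in Vhl, Vegfa, P4ha2 and Itgae and by least in Ldha, and only Vhl and Cxcr3 are lower in VHL-deficient cells.

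HIF targets outside glycolysis also rose in part: 14 of the 29 tested, of 30 listed, were called higher and none lower, with a median log2FC of 1.63, and the count was 10, 10, 14 and 11 without VHL-deficient replicates 1 and 2 and WT replicates 1 and 2. P4ha2, a collagen prolyl hydroxylase subunit, stood at 734 and 805 against 12.0 and 16.5. It was near the floor in WT cells, and its log2FC of 5.68 ± 0.33 had an adjusted p of 2.23e-09, the smallest on the list. Bnip3, a mitophagy receptor of the outer mitochondrial membrane, stood at 3586 and 3296 against 147 and 200 (log2FC 4.32, adjusted p = 2.03e-07). Its paralog Bnip3l (NIX) stood at 1395 and 1331 against 299 and 275 (log2FC 2.24, adjusted p = 9.71e-07), though an annotated pseudogene, Bnip3l-ps, moved in the same direction and may share its reads. The WT replicates of both receptors agreed closely and all these genes kept their calls.

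Further members of the same list were called. Vegfa, the vascular growth factor, stood at 66.3 and 37.0 against 0 reads in either WT library. Against a floor of 3 reads in each WT library it was higher by at least 3.32 on the log2 scale, and limma gave an adjusted p of 3.19e-06. The glycoprotein hormone stanniocalcin 2 (Stc2) stood at 319 and 413 against 15.3 and 7.06 (log2FC 4.99, adjusted p = 1.37e-05). Ero1l, the oxidase that drives disulfide formation, stood at 3144 and 2592 against 720 and 341 (log2FC 2.52, adjusted p = 5.22e-04), and Ndrg1, a stress-responsive gene, at 3867 and 3857 against 611 and 468 (log2FC 2.85, adjusted p = 2.99e-06). None of these had overlapping groups and all kept their calls. P4ha1, Plod2, Ankrd37, Higd1a and Nrn1 were called with log2FC from 1.41 to 3.04 and lost the call in at least 2 of the 4 fits without 1 library. The known targets Adm (36.5 and 14.2 against 0 and 2.35), Car9 (39.2 and 20.5 against 10.9 and 7.06) and Ddit4 (187 and 143 against 94.9 and 28.2) did not pass the test, with adjusted p of 0.0976, 0.464 and 0.0789.

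Of the 14 oxygen-sensing genes, 3 were called higher and 1, Vhl, lower. The prolyl hydroxylase Egln3 stood at 2340 and 2196 against 122 and 125, log2FC 4.19 ± 0.29, adjusted p = 2.56e-08. Egln1, the hydroxylase that sets HIF turnover in most cells, stood at 271 and 294 against 80.7 and 77.6, log2FC 1.82 ± 0.30, adjusted p = 0.00112. Both pairs of WT values were tight and both genes kept their calls. Hif3a, an alpha subunit that can restrain the others, stood at 31.1 and 36.2 against 0 and 4.70; with 2 WT reads in all, the ratio of pooled reads was 23.0, with an exact 95% counting interval of 6.14 to 194, and the call (adjusted p = 0.0203) was kept only in the fit without WT replicate 2. The transcript of Hif1a itself, at 1946 and 1530 against 3669 and 2110, had log2FC -0.69 ± 0.29 and adjusted p = 0.292. Among 16 oxygen-dependent demethylases of histones and DNA, which like EGLN enzymes need oxygen and 2-oxoglutarate, only Kdm5b was called (606 and 756 against 171 and 65.8, log2FC 2.66, adjusted p = 5.10e-04, call kept), while 15 of the 16 had a positive log2FC, with a median of 0.72.

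In glycogen metabolism, of 13 tested genes of 17 listed, 6 were called higher and none lower, and the median log2FC was 0.52. Glycogen synthase 1 (Gys1) stood at 483 and 541 against 58.9 and 21.2 (log2FC 3.81, adjusted p = 1.12e-04). The branching enzyme Gbe1 stood at 659 and 680 against 135 and 84.7 (log2FC 2.63, adjusted p = 0.00144). Both belong to synthesis, and in both the WT replicates were spread but far below the VHL-deficient ones. The phosphorylase Pygl, which releases glucose 1-phosphate from glycogen, stood at 1345 and 1450 against 70.9 and 75.3 (log2FC 4.24, adjusted p = 2.22e-05), and phosphoglucomutase 2 (Pgm2) at 2151 and 2072 against 434 and 536 (log2FC 2.13, adjusted p = 8.60e-05). These 4 kept their calls. The phosphatase targeting subunit Ppp1r3b, at 1037 and 590 against 112 and 7.06, was called and lost the call without either VHL-deficient replicate or without WT replicate 2. In spleen, where the same enzymes were measured in libraries of the same well column, Gys1 and Gbe1 had log2FC 0.74 and 0.39 and were not called, while Pygl had 5.40; the test of the difference between tissues called none of the 3.

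Among transcripts of the respiratory chain 2 passed the test. All 8 tested transcripts of the mitochondrial genome, of 13 listed, were below both WT libraries in both VHL-deficient libraries, their median log2FC was -1.26, and 2 were called. The complex I subunit mt-Nd5 stood at 3025 and 2850 against 5913 and 8591 (log2FC -1.28 ± 0.31, adjusted p = 0.0306). Cytochrome b of complex III, mt-Cytb, stood at 1657 and 1560 against 3109 and 4854 (log2FC -1.27 ± 0.32, adjusted p = 0.0464). The groups did not overlap, but neither call held without VHL-deficient replicate 1, VHL-deficient replicate 2 or WT replicate 2, while 4 members were called without WT replicate 1. All 44 nuclear genes of oxidative phosphorylation had a negative log2FC, with a median of -0.55, and in 34 the VHL-deficient libraries lay below both WT libraries; none of the 44 passed the test. In spleen, mt-Nd5 and mt-Cytb had log2FC of -0.20 and -0.10, and the test of the difference called neither. The share of reads from the mitochondrial genome, given above, is built from the mitochondrial transcripts and is not a separate measure of them. The ribosomal-repeat RNA Gm26917 also stood lower in VHL-deficient cells (61555 and 83592 against 204008 and 308947, log2FC -1.81, adjusted p = 0.104 by limma). It alone fell among 4 tested genes on a list of nuclear long RNAs. The other 3 stood higher in both VHL-deficient libraries than in both WT libraries, and none of the 4 was called. The part of Gm26917 in this result, and of the mitochondrial share in that of the nuclear genes, was not tested. In the tricarboxylic acid cycle list 1 of 27 genes was called, Pdk1, which acts against the cycle by switching off pyruvate dehydrogenase, and the median was -0.29.

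**Figure D3:**
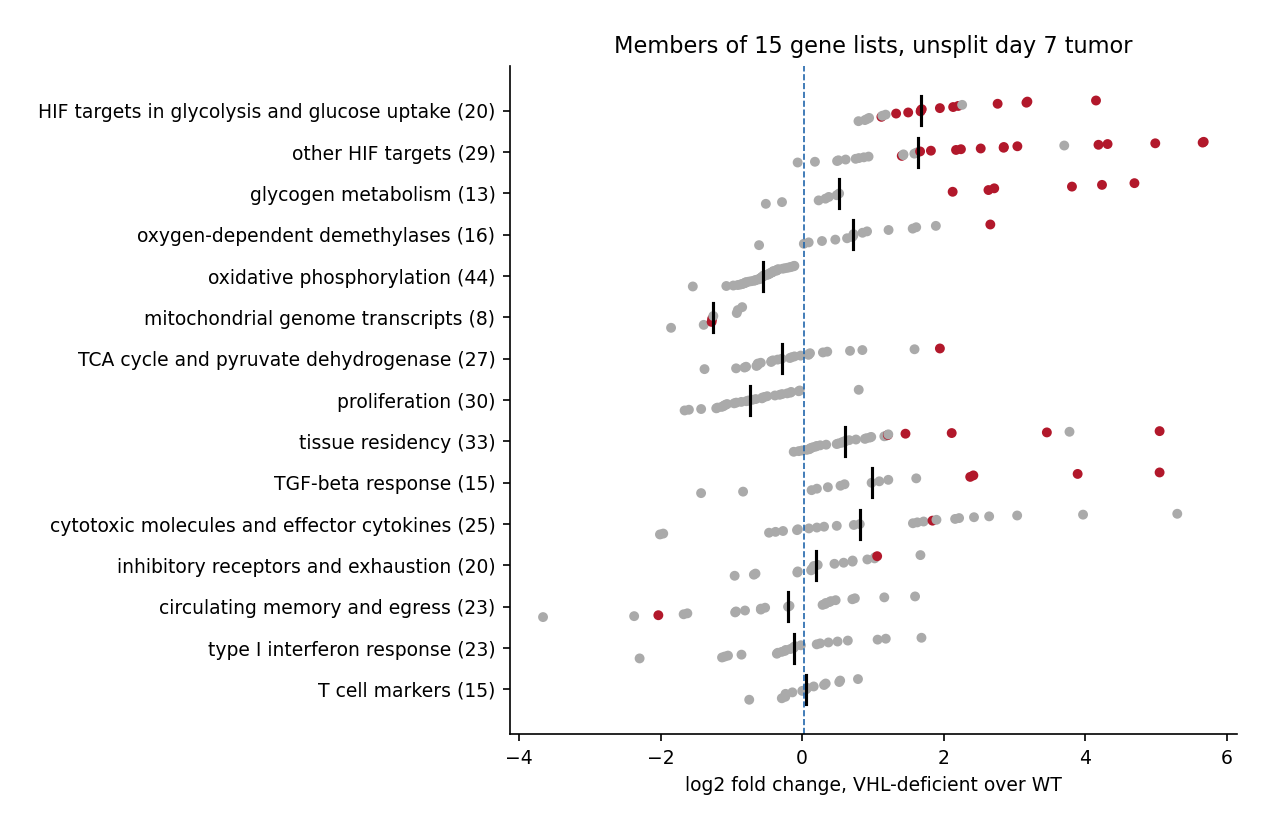
Log2FC, VHL-deficient over WT, of the tested members of 15 gene lists (number tested in parentheses), with called members in red, other members in grey, the median of each list as a black bar and the median of all tested genes as a dashed line at 0.03. The HIF target lists lie to the right with medians of 1.68 and 1.63, and oxidative phosphorylation, mitochondrial genome and proliferation lie to the left with medians of -0.55, -1.26 and -0.73.

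Among cell-cycle genes no call was made by limma. Of 30 proliferation genes none was called, 29 had a negative log2FC, 25 lay below both WT libraries in both VHL-deficient libraries, and the median was -0.73. The mitotic kinase Plk1 stood at 101 and 137 against 293 and 480 (log2FC -1.66, adjusted p = 0.263), and the division marker Mki67 at 1013 and 915 against 1297 and 1893 (log2FC -0.70, adjusted p = 0.269). In these 2 genes the groups did not overlap, and neither passed the test. In day 11 tumor 19 of the same 30 were called lower, and 20 over the mean of the Trm and nonTrm sorts; the test of the difference from unsplit day 7 cells called none in either case.

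Genes of tissue residency rose in part. Of 33 tested, 5 were called higher and none lower, with a median log2FC of 0.61 and 30 of 33 positive. Itgae, the CD103 chain of an integrin whose ligand is epithelial E-cadherin (chr11:73090583-73147446), stood at 123 and 160 scaled counts against 2.18 and 4.70, from 2 reads in each WT library. It was close to absent in WT tumor cells, and log2FC was 5.05 ± 0.68 with adjusted p = 1.34e-04 by limma. Itgae kept its call, though not with voom, which gave it an adjusted p of 0.113. In day 7 spleen it was not absent in WT cells: its mean was 142 scaled counts in WT and 435 in VHL-deficient cells (log2FC 1.52, not called). Itga1, the collagen-binding CD49a chain, stood at 326 and 298 against 103 and 49.4 (log2FC 2.11, adjusted p = 0.0147), and Qpct, glutaminyl cyclase, at 89.3 and 73.3 against 8.72 and 4.70 (log2FC 3.46, adjusted p = 0.00526). Both had groups well apart, and both lost the call in at least 2 of the 4 fits without 1 library, as did Adam19 and Rgs1. The count of called members was 1 without VHL-deficient replicate 1, 2 without replicate 2, 5 without WT replicate 1 and 2 without WT replicate 2. The rise was not particular to tumor: in day 7 spleen 5 of the 33 were called higher and none lower, with a median log2FC of 0.71. Itga1 had a mean of 484 in VHL-deficient and 344 in WT spleen (log2FC 0.49, not called). Cd69, an early activation antigen that retains cells in tissue, stood at 3003 and 3180 against 1671 and 4386; the WT libraries enclosed the VHL-deficient ones, and log2FC was 0.19 ± 0.56, adjusted p = 0.908.

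Of 15 genes of the transforming growth factor beta (TGF-beta) response, whose signal is known to induce Itgae, 4 were called higher, Itgae among them, and the median was 0.98. The co-receptor Tgfbr3 (betaglycan) stood at 48.7 and 66.2 against 0 and 14.1 (log2FC 3.89, adjusted p = 0.0134). The ligand Tgfb3 stood at 70.3 and 36.2 against 15.3 and 4.70 (log2FC 2.42, adjusted p = 0.0302), and Ldlrad4, an inhibitor of the pathway, at 59.5 and 29.9 against 7.63 and 7.06 (log2FC 2.38, adjusted p = 0.0369). These are low levels with no overlap, and the list's count was 1 without either VHL-deficient replicate, 4 without WT replicate 1 and 2 without WT replicate 2.

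Of 25 genes of cytotoxicity and effector cytokines 1 was called. The log2FC was positive in 18 and negative in 7, and the median was 0.81. Perforin (Prf1), which forms the pore through which granzymes enter a target, stood at 16502 and 16500 against 4495 and 4708. The replicates were nearly equal within each genotype, log2FC was 1.84 ± 0.47 and adjusted p = 0.0467, a call that no fit without 1 of the 4 libraries kept. Granzyme B (Gzmb) stood at 96736 and 75646 against 23044 and 29394 (log2FC 1.72 ± 0.53, adjusted p = 0.116), and Gzmc at 29938 and 26375 against 3771 and 5364 (log2FC 2.64 ± 0.89, adjusted p = 0.16). Their groups did not overlap in these 4 libraries, and neither gene passed the test. Interferon gamma (Ifng) stood at 1648 and 1572 against 1090 and 2081, with log2FC 0.10 ± 0.49 and adjusted p = 0.949.

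Receptors that tune T cells showed few calls. Of 20 inhibitory receptors and exhaustion genes, Vsir (VISTA) was called higher, at 2277 and 2137 against 1078 and 1037 (log2FC 1.06, adjusted p = 0.0248). Pdcd1 (PD-1) stood at 4967 and 3648 against 4034 and 3645, with overlapping groups, log2FC 0.15 ± 0.40 and adjusted p = 0.896. Among 16 costimulatory genes, Slamf7 (1142 and 1253 against 455 and 562, log2FC 1.24, adjusted p = 0.0116) and the 4-1BB ligand Tnfsf9 (262 and 221 against 18.5 and 54.1, log2FC 2.88, adjusted p = 0.03) were called. The survival factor Bcl2 was called at 1389 and 1394 against 636 and 569 (log2FC 1.21, adjusted p = 0.00381). The groups of these 4 called genes did not overlap, and each lost the call without either VHL-deficient replicate. Vsir lost it without either WT replicate as well, Slamf7 and Tnfsf9 without WT replicate 1, and Bcl2 without WT replicate 2. Tcf7, the TCF-1 factor of stem-like cells, stood at 51.4 and 34.7 against 137 and 127 (log2FC -1.62 ± 0.62, adjusted p = 0.238).

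Chemokine receptors moved in both directions. Cxcr3, the receptor for interferon-induced chemokines (chrX:101731535-101734269), stood at 78.5 and 107 against 416 and 741. The WT libraries were well above the VHL-deficient ones, log2FC was -2.58 ± 0.41 with adjusted p = 8.00e-04, and kept its call. Cxcr4, the receptor for CXCL12, rose, from 24.0 and 9.41 in WT to 150 and 96.9 in VHL-deficient cells (log2FC 2.92, adjusted p = 0.00466), and lost the call without VHL-deficient replicate 1 or WT replicate 2. Ccr1, outside the lists and chosen after its values were seen, rose from 97.1 and 98.8 to 713 and 641 (log2FC 2.77, adjusted p = 6.41e-04). Of the 17 tested genes of the list, Cxcr3 and Cxcr4 were the calls, and the median was 0.96.

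The largest changes lay partly outside the lists. Among called genes whose mean level lay above the median, St6gal1, which adds alpha-2,6 sialic acid to glycans, stood at 1576 and 1669 against 24.0 and 21.2 (log2FC 6.11, adjusted p = 5.04e-06). Mgarp, a mitochondrial protein that rises in hypoxia, stood at 805 and 687 against 10.9 and 11.8 (log2FC 5.92, adjusted p = 1.84e-06). The class II MHC beta chain H2-Ab1 (chr17:34257689-34269419) stood at 1821 and 1575 against 30.5 and 44.7 (log2FC 5.48, adjusted p = 5.04e-06). All 3 kept their calls, and the WT values were a small part of the VHL-deficient ones. The partner chain H2-Aa did not follow, at 8.12 and 3.15 against 1.09 and 28.2, and neither did the other beta chain H2-Eb1, at 4.06 and 7.88 against 1.09 and 7.06. Of the 7 tested genes on the class II list H2-Ab1 was the call. H2-Ob, a chain of the non-classical class II molecule DO, not on that list and chosen after its values were seen, was also called higher (43.3 and 64.6 against 6.54 and 4.70, log2FC 3.04, adjusted p = 0.0153). Its groups did not overlap, and it lost the call without either VHL-deficient replicate or without WT replicate 2.

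Signaling genes with large rises that kept their calls were Sema6d, a semaphorin (490 and 398 against 13.1 and 16.5, log2FC 4.82), Rgs11, a regulator of G protein signaling (1043 and 1069 against 81.8 and 89.4, log2FC 3.61), the growth factor receptor Igf1r (317 and 268 against 30.5 and 23.5, log2FC 3.39) and beta-arrestin 1, Arrb1 (858 and 737 against 131 and 47.0, log2FC 3.32). Adjusted p for these 4 ran from 1.11e-05 for Rgs11 to 0.00105 for Igf1r. A further 3 genes nearly silent in WT cells, chosen after their values were seen, had the highest log2FC of all. The lipoprotein receptor Vldlr stood at 793 and 820 against 0 and 2.35, the laminin-binding integrin chain Itga7 at 514 and 523 against 0 and 2.35, and the mucin Muc2 at 206 and 184 against 0 and 0. Muc2 was at least 37.8-fold higher against 3 reads in each WT library; with 1 WT read each, the ratio of pooled reads was 1087 for Vldlr (95% counting interval 195 to 42957) and 697 for Itga7 (125 to 27574). Of the 241 genes called higher, 22 had no WT read and 28 had 1 to 3, and with the former set at their bounds the median log2FC of the 241 was 2.38.

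Among the 32 genes called lower, Vhl, Cxcr3, Ctse and Eno3 kept their calls. Cathepsin E (Ctse), an endosomal aspartic protease, stood at 90.6 and 74.1 against 335 and 579 (log2FC -2.41, adjusted p = 2.04e-04). The muscle-type enolase Eno3 stood at 66.3 and 91.4 against 291 and 536 (log2FC -2.33, adjusted p = 6.56e-04), opposite in direction to the glycolytic genes of the list above. Ly6c2, a surface antigen of circulating effector and memory cells, stood at 702 and 864 against 2294 and 4435 (log2FC -2.03, adjusted p = 0.0199) and was the 1 call among 23 genes of circulating memory and egress. Ifnar2, a chain of the type I interferon receptor, stood at 81.2 and 110 against 216 and 287 (log2FC -1.39, adjusted p = 0.0162). In these genes the groups did not overlap, and WT replicate 2 was the highest library in each of them but Vhl.

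Among markers of other cell types 3 genes were called. The hemoglobin genes Hbb-bs and Hba-a1, and Igkc, Adgre1, C1qa, S100a8, Col1a1 and Pdgfrb had no read in any of the 4 libraries. The summed level of 12 macrophage and monocyte markers was 37.9 and 64.6 in VHL-deficient against 69.8 and 96.4 in WT cells, of 7 melanoma markers 27.1 and 25.2 against 37.1 and 30.6, and of 12 neutrophil markers 4.06 and 11.8 against 5.45 and 11.8. None of these 3 sums stood higher in both VHL-deficient libraries than in both WT libraries, and the sum of 10 dendritic cell markers (442 and 361 against 373 and 207) overlapped. The sum of 8 fibroblast and endothelial markers, of which 3 had no read in the 4 libraries, overlapped too (306 and 271 against 308 and 179). The sum of 8 CD4 T cell markers did stand higher in both VHL-deficient libraries (6402 and 4936 against 4232 and 4141), and most of it was Ctla4. The sum of 8 NK cell markers stood lower in both (265.1 and 265.5 against 342 and 550.3), with none of its members called. The part of these cell types in the results was not tested. The 3 calls were Ighm (141 and 127 against 502 and 974, log2FC -2.38, adjusted p = 0.00522), Xcr1 (202 and 197 against 75.3 and 63.5, log2FC 1.51, adjusted p = 0.0199) and Cd4 (24.3 and 22.1 against 0 and 2.35, adjusted p = 0.0243). Ighm made up most of the B cell sum of 9 markers, 200.2 and 199 against 532 and 1032, while Cd79a, Ms4a1 and Pax5 stood at 4.70 or less in all 4 libraries. In RNA from pools of sorted cells, a change in the number of cells of a type and a change in RNA per cell cannot be told apart.

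Several lists had no call. Fatty acid oxidation, cholesterol and fatty acid synthesis, serine and one-carbon metabolism, the unfolded protein response, redox and metal response, effector transcription factors, cytokine receptors, immediate early genes and the type I interferon response had no called member by limma among 18, 24, 23, 14, 19, 15, 22, 22 and 23 tested genes.

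The same genes were then followed into the other 3 settings, whose libraries are separate from these 4. All comparisons came from 1 fit and share each gene's estimate of the spread, so the calls in the settings are not independent. Of the 241 genes called higher, 208 (86.3%) were also among the 641 called higher in day 11 tumor (4.47% of tested genes; 343 or 2.39% lower), a share of 32.4% of those. Over the mean of the Trm and nonTrm sorts, 222 (92.1%) were among 1109 called higher (7.74%; 911 or 6.36% lower), 20.0% of those. In day 7 spleen 113 (46.9%) were among 350 called higher (2.44%; 105 or 0.733% lower), 32.3% of those. Of the 32 called lower, 24, 28 and 9 were called lower in these 3 settings, and no gene was called in the opposite direction in any. The log2FC of all tested genes correlated with Pearson r of 0.66 for day 11, 0.66 for the sorts and 0.29 for spleen, a description across genes, which are not replicates. The other tumor settings were in other well columns by their sample titles, so day, or sorting, and well column cannot be told apart there, whereas the spleen libraries shared the column.

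**Figure D4:**
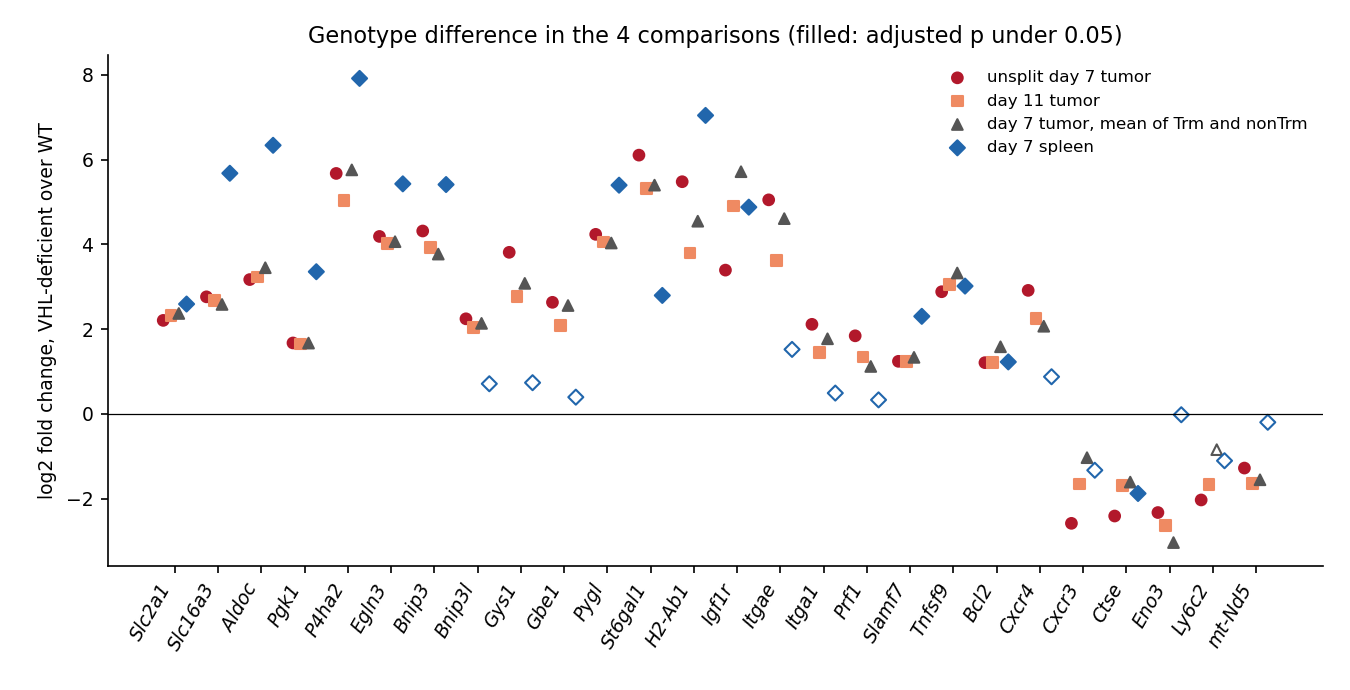
Log2FC, VHL-deficient over WT, of 26 called genes in unsplit day 7 tumor (red circles), day 11 tumor (orange squares), the mean of the Trm and nonTrm sorts (grey triangles) and day 7 spleen (blue diamonds), filled where the adjusted p was under 0.05. The 3 tumor settings lie close together for most genes, and spleen values lie above or below them, as for Aldoc (6.34 against 3.17) and Gys1 (0.74 against 3.81), although the test of the difference from spleen called neither (adjusted p of 0.101 and 0.15).

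The difference between genotype effects was tested directly. Against day 11 tumor no gene was called by limma, with 268 at an unadjusted p under 0.05 and a smallest adjusted p of 1. Against the sorted cells none was called either, with 384 at an unadjusted p under 0.05 and a smallest adjusted p of 0.9998. Misses of this kind do not show equal effects. Against day 7 spleen 10 genes (0.0698%) were called, 3 with a larger and 7 with a smaller effect in tumor, and 1377 had an unadjusted p under 0.05. These 10 depended on single libraries: the count was 0 without either VHL-deficient day 7 tumor replicate, 1 without WT replicate 2, and 2 with voom.

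Genes with a larger effect in tumor included Bnip3l, at 637 and 633 against 377 and 398 in spleen (log2FC 0.71) and the tumor values given above (log2FC 2.24). Tmem119, a membrane protein known from bone and microglia, had no read in any spleen library of either genotype and stood at 156 and 114 against 0 and 0 in tumor, at least 26.1-fold higher against 3 reads in each WT library, though voom did not call it. Nid1, a basement membrane glycoprotein, stood at 67.6 and 58.3 against 2.18 and 0 in tumor, and at 5.24 or less in all 4 spleen libraries. With 2 WT tumor reads, its ratio of pooled reads in tumor was 41.4 (95% counting interval 11.2 to 346). In these 3 the VHL-deficient tumor libraries stood above every other library compared.

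Genes with a larger effect in spleen included Slc16a3 and Tpi1. Slc16a3 stood at 1301 and 1400 in VHL-deficient against 30.6 and 21.0 in WT spleen, log2FC 5.68 against 2.76 in tumor. The triose phosphate isomerase Tpi1 stood at 6846 and 6262 against 380 and 285 in spleen and at 15093 and 14163 against 3807 and 5385 in tumor, log2FC 4.31 against 1.69. In both genes WT spleen was the lowest group by far and VHL-deficient tumor the highest. Ctla4, an inhibitory receptor, stood at 1193 and 1362 against 255 and 139 in spleen (log2FC 2.75, adjusted p = 7.24e-06) and at 5895 and 4455 against 3804 and 3666 in tumor (log2FC 0.46, adjusted p = 0.526). The groups were apart in both tissues, by more in spleen. The repressor Nfil3 and the tubulin Tubb6 followed the same pattern, with log2FC 3.49 and 3.42 in spleen and 0.56 and 0.76 in tumor. Prelid2, of a family of mitochondrial lipid-transfer proteins, had 5.27 and 2.37, and the unnamed D630039A03Rik had 3.78 and 1.12.

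**Figure D5:**
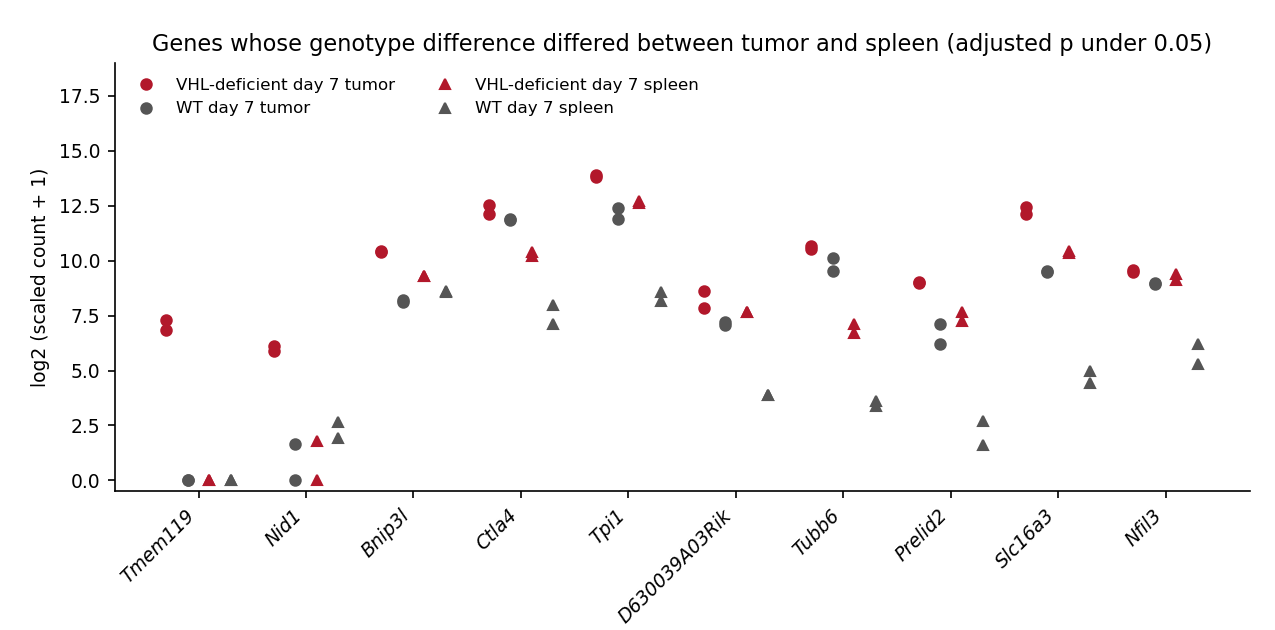
Levels, as log2(scaled count + 1), of the 10 genes called in the test of the genotype effect in unsplit day 7 tumor against that in day 7 spleen; circles are tumor, triangles spleen, red VHL-deficient and grey WT, 1 point a library. Tmem119, Nid1 and Bnip3l are parted by genotype in tumor most, and the 7 genes to the right are parted in spleen most, where the WT libraries are lowest.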

How the data were processed

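RNA was measured in 22 libraries of P14 CD8+ T cells, 4 of them unsplit day 7 tumor. Per the submitters' processing notes, the authors used STAR, featureCounts, DESeq and the mm10 build. The deposited signal values are read counts divided by 1 size factor per library, plus 1, as the values themselves show: after removal of the offset of 1, 100% were whole multiples of 1 step per library (tolerance 0.01 of a read, largest deviation 0.000584). Strand, duplicates and the handling of reads with several matches were not stated in the sources at hand.

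The scaled counts (signal minus 1) were taken as log2(scaled count + 1), and 1 fit of 10 group means over all 22 libraries was made with limma 3.58.1 in R 4.3.3 (eBayes with a trend, 12 residual degrees of freedom). Genes with at least 10 scaled counts in at least 2 libraries were tested, two-sided, with Benjamini-Hochberg adjustment over all 14327 and a threshold of 0.05. The 46297 rows held 46252 symbols, and the 88 rows of 43 repeated symbols were kept apart; the header states 55 samples and no column of values was left unused among the 22. Differences between settings were contrasts in the same fit. Few-read ratios carry exact 95% intervals that cover counting error only, and floors are 3 reads per library. Tools were tested on simulated data.

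Named genes were Vhl, a short list of T cell and HIF genes, the 15 highest and lowest called genes above the median level, and up to 4 called members per list and direction. Where a list had no call, a few members with the highest mean level could be named. Each test of a difference between genotype effects added, per direction, the few called genes with the smallest adjusted p. Outside this rule, Adm, Ankrd37, Bnip3l-ps, Bsg, Car9, Ccr1, Cd3e, Cd8a, Ctla4, D630039A03Rik, Ddit4, Ero1l, Gapdh, Gpi1, Gzmc, H2-Aa, H2-Eb1, H2-Ob, Higd1a, Hk2, Itga7, Mki67, Muc2, Ndrg1, Nrn1, P4ha1, Pfkfb3, Pfkl, Pkm, Plk1, Plod2, Rgs1, Stc2 and Vldlr were chosen after their values were seen, as were the cell markers named at 0. Members and lists were chosen with earlier results of these data known. Alternatives changed scaling, filter, pseudocount, variance trend, library weights, test, replicate block and the libraries in the fit. The plan assumed that count models could be run, and they were not. A few genes are not reported here.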

Additional observations from a re-analysis of the deposited data

Results flagged for a closer look

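The genotype effect differed between unsplit day 7 tumor and day 7 spleen in 10 genes by limma's test of the difference itself, given here as log2FC in tumor minus log2FC in spleen. It was larger in tumor for Tmem119 (7.07, adjusted p = 0.047), Nid1 (6.55, adjusted p = 0.0359) and Bnip3l (1.53, adjusted p = 0.0469). It was smaller in tumor for Nfil3 (-2.93, adjusted p = 0.0159), Slc16a3 (-2.92, adjusted p = 0.0148), Prelid2 (-2.91, adjusted p = 0.0445) and Tubb6 (-2.67, adjusted p = 0.0159). The same held for D630039A03Rik (-2.66, adjusted p = 0.0359), Tpi1 (-2.62, adjusted p = 0.0359) and Ctla4 (-2.30, adjusted p = 0.047). In Tmem119 and Nid1 the WT tumor libraries held 2 reads in all or fewer, so these differences depend on the pseudocount. Prelid2 had few reads in WT spleen, at 5.57 and 2.10 scaled counts, so the same limit bears on its spleen log2FC. All adjusted p lay between 0.0148 and 0.047, near the threshold.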

How the results depend on the processing

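Of 273 genes called in unsplit day 7 tumor, 67 were called under all 34 alternatives, 63 of them higher. The count was 410 with library weights and 116 in a fit of the 4 libraries alone, and ranged from 94 to 424 when 1 of the 22 libraries was left out. Of 76 called genes named in the text none reversed, and 36 were called under every alternative. The fit of the 4 libraries alone lost 30 of the 76 calls, and voom lost 13. For the difference from spleen, 10 genes became 16 with no filter, 5 with a pseudocount of 5, 1 without the variance trend and 2 with voom, and 0 to 17 without 1 library. The difference from day 11 stayed at 0 calls under these alternatives, and that from the sorted cells ranged from 0 to 1 without 1 library. Without 1 library, the log2FC of uncalled genes changed sign for Cd69 (-0.51 to 0.89), Ifng (-0.37 to 0.56), Pdcd1 (-0.072 to 0.37), H2-Eb1 (-0.27 to 1.68) and H2-Aa (-2.25 to 1.56, with 0.22 without VHL-deficient replicate 2 and 0.061 with voom). The causes were not tested.

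Deviations of same-numbered libraries correlated at 0.03 in unsplit day 7 tumor, so the numbers were not taken as pairs. The correlation was 0.118 in spleen, 0.043 to 0.105 in day 11 tumor, 0.236 in Trm and 0.271 in nonTrm cells, whose libraries enter the shared estimate of the spread. With the replicate block the count of calls was 578 and that of differences from spleen 111. The 2 planned count models, a quasi-likelihood and a negative binomial test, were not run, and voom was the test made on the recovered reads. Depth of 3644936 to 8744385 reads limits genes with few WT reads.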
